A study of Mus musculus with 7 samples.

Results

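The cells described here were the sinusoidal endothelium of 3 mouse livers, profiled by droplet single-cell RNA sequencing in the libraries NEJ638, NEJ654 and NEJ677. These were taken here, by elimination, as the healthy livers of the study. The members were chosen by their own counts of unique molecular identifiers (UMIs, each standing for 1 captured RNA molecule). A barcode was kept when it held more than 1000 UMIs and at most 20% of UMIs from mitochondrial genes, and it became a member when Cdh5, Kdr, Ptprb, Egfl7, Stab2, Gpr182 and Clec4g together gave at least 4 UMIs and at least 0.2% of its base UMIs while the complement genes C1qa, C1qb and C1qc gave under 1%. Base UMIs leave out mitochondrial and haemoglobin genes, and every level is in counts per 1000000 base UMIs (CPM), summed over the barcodes of a library. This gave 6559 members, which were 34.7% of the 18897 kept barcodes of the 3 libraries and 6.52% of the 100676 kept barcodes of the whole series. NEJ638 gave 2637 members, NEJ654 1923 and NEJ677 1999.

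The series held 7 mouse liver libraries, and the labels described all of them alike, as liver of a hepatoblastoma model. The study named 4 of them (NEJ634, NEJ687, NEJ709 and NEJ723) as tumors, so NEJ638, NEJ654 and NEJ677 were the normal livers only by elimination. Per the study's methods its normal mice were littermates that lacked at least 1 of the transgenes of the tumor model, an albumin-driven Cre (Alb-Cre) and a Cre-dependent MYC (CAG-MYC), on a C57BL/6J background. The methods describe perfusion and collagenase digestion before capture for the tumors, and do not state them separately for the normal livers. Which transgene each mouse lacked and the ages were not given in the sources used here. The study counted 3 healthy livers, as many as these libraries, but did not match livers to libraries by name. The labels set no groups, so the 3 libraries were not treated as replicates. Each library's value is given on its own, no test between groups was made, and every interval is an exact 95% interval that covers counting error only.

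Liver sinusoids are lined by an endothelium unlike that of other vascular beds. Its cells are perforated by fenestrae, lack a closed basement membrane, and take up waste molecules, immune complexes and small particles from blood through scavenger receptors. They also send signals to hepatocytes: Wnt ligands and R-spondin from endothelium near the central vein keep the central hepatocyte program, and bone morphogenetic proteins set the output of the iron hormone hepcidin. Blood enters each lobule at the portal tract and leaves at the central vein, and endothelial genes are known to differ along that path.

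Members carried the markers given for this cell type. At least 1 of Stab2, Clec4g, Kdr, Ptprb and Gpr182 had a UMI in 99.96% of members of NEJ638, 100% of NEJ654 and 99.95% of NEJ677, and all 5 had one in 75.8%, 75.3% and 82.7%. These shares follow from the rule and are a description. The sinusoidal genes Stab2, Clec4g and Gpr182 were all at 0 in only 21, 19 and 11 members. Counts near the limits were small at the endothelial side: 48 members lay at exactly 4 UMIs and 42 barcodes just outside at 3, and 43 members lay between 0.2% and 0.25% with 57 barcodes just outside between 0.15% and 0.2%. The complement limit cut through a fuller region, with 235 members between 0.75% and 1% and 156 barcodes in a band of equal width just above 1%.

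The share of kept barcodes that were members was 41.4% (40.1 to 42.6) in NEJ638, 33.9% (32.7 to 35.1) in NEJ654 and 29.2% (28.1 to 30.3) in NEJ677. The intervals did not overlap, and NEJ638 was the highest. Members held a median of 2640, 3567 and 4345 UMIs and 1478, 1786 and 2060 genes. NEJ638 stood apart in that its members had a median of 6.39% mitochondrial UMIs against 1.90% and 2.04%, and it was the shallowest of the 3. Haemoglobin UMIs made up 0.759% to 1.32% of members' UMIs and 12.9% to 23.6% of those of the other kept barcodes. Between 77 and 118 members of each library had a barcode that also occurred with over 500 UMIs in another library of the series, while the barcode sequences that were members in both libraries of a pair numbered 5 for NEJ654 and NEJ677 and 1 for each pair with NEJ638. The counts of members were repeated without these barcodes. Those of zone genes and of genes between libraries were repeated without these barcodes and the highest doublet scores together.

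For comparison, 2 other classes were gated in the same libraries: Kupffer-gated barcodes, the liver macrophages, with the C1q genes at 1% or more of base (187, 881 and 569 barcodes), and lymphocyte-gated barcodes with at least 4 UMIs and 0.2% from 8 T, NK and B cell genes (663, 1219 and 1709). Barcodes ranked 45000 to 90000 by UMI count in each library, too small to be cells, served as the measure of free RNA and are called low-UMI barcodes. Because the rule itself separates the gates, the folds over them describe the cells and nothing is read from them. In all, 385 of the 6198 genes at 20 CPM or more in each library were at least 4-fold higher in members than in both gates in each of the 3 libraries (6.21%), and the median smallest fold over all genes tested was 0.91. The counts given below for lists of genes stand beside this share of 6.21%. The lists were chosen with earlier results of these data known, so their counts are a description too.

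The 7 rule genes had summed levels of 10360, 10850 and 10900 CPM in members. Stab2, the main clearance receptor for hyaluronan, stood at 1253 (1228 to 1278), 841 (821 to 862) and 1001 (981 to 1021). Clec4g, a C-type lectin of sinusoidal cells, stood at 1473, 2822 and 2158, so its order across libraries was the reverse of that of Stab2. Gpr182, an endothelial receptor that scavenges chemokines, was at 1372, 1146 and 1160, Kdr, the main receptor for vascular endothelial growth factor, at 1416, 1491 and 1538, and Ptprb, an endothelial phosphatase, at 2059, 2345 and 2902. Of the 7, 5 passed 4-fold over both gates, and Stab2 and Cdh5 did not.

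Part of the Kupffer gate met the endothelial limits too: 13, 200 and 151 Kupffer-gated barcodes were outside the members by the C1q limit alone. Without them, an alternative added after the data were seen, 544 genes passed in place of 385. The smallest folds of the rule genes go up by construction there, that of Stab2 from 3.83 to 9.53 and that of Kdr from 4.98 to 67.6. Folds of genes that go with the rule genes are raised by the removal as well. The barcodes left out are called mixed below because they met the limits of each gate, and which cells they held was not tested. Cdh5, the endothelial cadherin, was at 1188, 754 and 853 in members and at 561, 422.5 and 491 in Kupffer-gated barcodes, and its smallest fold stayed near its former 1.74, at 2.05. The markers lie on chromosome 10 (Stab2, 86841198 to 87008025, Ptprb, 116275523 to 116389535, and Gpr182, 127747276 to 127751732), chromosome 8 (Clec4g, 3707064 to 3720651) and chromosome 5 (Kdr, 75932827 to 75978458) in the GENCODE M21 annotation of GRCm38.

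The 15 genes with the largest smallest fold over both gates were Flrt2, Tmem132e, Hoxa5, Ackr2, Slc26a10, Ptpn14, Timp3, Jam2, Ctnnal1, Mecom, Cdr2l, Podxl, Inhbb, Cyyr1 and Col13a1, with folds from 6.72 to 11.0. Flrt2, an adhesion and guidance molecule, led at 42.1, 25.2 and 26.9. Timp3, an inhibitor of matrix proteases, was at 508.5, 292 and 477, Jam2, a junctional adhesion molecule, at 296, 285.5 and 365, and Podxl, a sialomucin of the luminal surface, at 212.5, 121 and 136. Ackr2, a receptor that scavenges inflammatory chemokines, was at 43.1, 28.7 and 37.9.

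Receptors of uptake formed a broad part of the profile. Of 16 scavenger and endocytic genes 13 were at 20 CPM or more in each library, and 3 of these were 4-fold higher than in both gates: Stab1, Fcgr2b and Ehd3. Stab1, the partner of Stab2, was at 1015, 773 and 883. Fcgr2b, the inhibitory Fc receptor that takes up immune complexes in the sinusoid, was at 1762, 1450 and 1484, and Ehd3, which recycles endocytic membrane, at 2828, 1979 and 2073. All 3 genes were highest in NEJ638.

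The mannose receptor Mrc1 stood at 1465, 1108 and 1273 in members and at 725, 563 and 785 in Kupffer-gated barcodes, a smallest fold of 1.62 that stayed at 1.91 without the mixed barcodes. Lyve1, a hyaluronan receptor, was at 360, 229 and 390, and Cd36, a receptor for fatty acids and thrombospondin, at 965, 356 and 452. Without the mixed barcodes the smallest folds of Lyve1, Cd36 and Scarf1 were 16.7, 6.475 and 4.375, past the 4-fold limit that they missed with the whole Kupffer gate. Since the removal raises genes that go with the rule genes, these folds are a description. The class A scavenger receptor Msr1 was at 325, 239 and 273, no higher than in Kupffer-gated barcodes of NEJ638 (444). Over Kupffer-gated barcodes without the mixed ones its folds were 0.726, 1.46 and 1.09 in NEJ638, NEJ654 and NEJ677. Without the members that carried Kupffer genes, described further on, its level was 309, 242 and 260. Lrp1, the receptor for remnant lipoproteins, was the clearest exception in the list, at 79.1, 111 and 109 in members and 551, 429 and 523 in Kupffer-gated barcodes. Colec12 and Cd209b stayed under 20 in each library.

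Of 16 further identity genes 14 were measured at 20 or more and 12 were 4-fold higher than in both gates. Dnase1l3, a secreted nuclease, was at 2072, 1881 and 2227, Aqp1, a water channel, at 2389, 2585 and 2497, and Fabp4, a fatty acid chaperone, at 2794, 2362 and 2632. These 3 genes kept within narrow bounds between libraries. Others did not: Igfbp7, a secreted binding protein, was at 2160, 4706 and 3919, and Gpihbp1, which anchors lipoprotein lipase on capillaries, at 1319, 2480 and 2181, both lowest in NEJ638. Fcna, listed for its use as a sinusoidal gene, was at 199, 343 and 301 in members but at 1965 to 2582 in Kupffer-gated barcodes and at 227 to 417 in low-UMI barcodes. The part of either in its level in members was not tested.

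Receptors for vascular growth factors were measured almost as a whole: 11 of 12 were at 20 or more and 9 of them were 4-fold higher than in both gates. Flt1, the decoy receptor for vascular endothelial growth factor, stood at 691, 560 and 708, and Flt4, the third receptor of that family, at 592, 550 and 614. Tek and Tie1, the angiopoietin receptors, were at 340, 253 and 317 and at 318.5, 221 and 242.5. Eng, a co-receptor for bone morphogenetic proteins, was at 1230, 1545 and 1721. The other 2 measured genes were Nrp1, with a smallest fold of 3.78 (11.6 without the mixed barcodes), and Acvrl1. Acvrl1 was lower in members (39.5 to 46.7) than in Kupffer-gated barcodes (71.59 to 78.45).

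Of 12 genes of continuous capillaries 7 were at 20 or more and 6 of these were 4-fold higher than in both gates. Pecam1, the endothelial adhesion molecule, was at 474, 523 and 611, Cldn5, a tight junction protein, at 357, 575 and 571.5, and Plvap, which forms the diaphragms that close fenestrae elsewhere, at 154, 203 and 207. Cd34, a mark of continuous capillaries that normal sinusoids lack, was at 17.3, 17.9 and 12.7. Thinned to 1000 UMIs a barcode, Cd34 had a UMI in 1.59%, 1.51% and 1.05% of members and in 0 of 663, 0 of 1219 and 0 of 1709 lymphocyte-gated barcodes, which allows shares of up to 0.555%, 0.302% and 0.216%. Car4, a carbonic anhydrase of lung and other capillaries, was at 0 UMIs in members of all 3 libraries, which allows up to 3 UMIs a library.

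Sinusoidal endothelium is the main source of clotting factor VIII. Its gene F8 was at 765, 505 and 635, and after thinning it had a UMI in 49.75%, 39.0% and 46.9% of members and in at most 0.574% of lymphocyte-gated barcodes. Of 12 clotting genes 8 were measured and 5 were 4-fold higher than in both gates: F8, Tfpi, F2r, Vwf and Thbd. Vwf, the carrier of factor VIII, which sinusoids hold at low level, was at 67.8, 65.6 and 56.3. Thrombomodulin (Thbd) was at 173, 53.8 and 85.8, and was thus highest in NEJ638. Procr and Plat, which act in anticoagulation and fibrinolysis, stayed between 3.47 and 5.87.

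Among 23 endothelial transcription factors 22 were at 20 or more and 8 were 4-fold higher than in both gates. Gata4, which is needed for the sinusoidal as opposed to the capillary program, stood at 189, 138 and 161. Maf, another factor tied to sinusoidal identity, stood at 2395, 1188 and 1502 with 905, 508 and 807 in Kupffer-gated barcodes. Nr2f2, the venous nuclear receptor, was at 934, 336 and 437 and Sox7 at 114, 35.0 and 48.7, so that both were over 2-fold higher in NEJ638 than in the other two. Ets1 and Fli1 were as high in lymphocytes, while Prox1, the factor of lymphatic endothelium, was at 15.1, 3.87 and 5.13, below its level in low-UMI barcodes (19.6 to 30.4). Of the 6 lymphatic genes 2 were at 20 or more in each library, and 1 of these, Flt4, was 4-fold higher than in both gates. Flt4 was given above as a growth factor receptor, and Reln is in the list of stellate markers too. The lymphatic genes Pdpn and Mmrn1 were under 1 in each library. Ccl21a was not low throughout. Over Kupffer-gated barcodes without the mixed ones its folds were 0.0201, 10.3 and 0.195, with any 0 set to 3 UMIs.

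The angiocrine ligands, by which the endothelium acts on its neighbours, were measured in part. Of 18, 10 were at 20 or more and 5 of these were 4-fold higher than in both gates: Wnt2, Rspo3, Bmp2, Dll1 and Gas6. Wnt2, the main endothelial Wnt of the lobule, was at 212 (202 to 223), 286 (274 to 298) and 338 (327 to 350), and Rspo3, which amplifies Wnt signals, at 103 (95.9 to 110), 221 (210 to 232) and 355 (343 to 367). Wnt9b, the Wnt ligand of the central vein, was at 8.86, 12.02 and 34.1. All 3 Wnt pathway ligands followed the same order, lowest in NEJ638 and highest in NEJ677. Rspo3 was carried by few cells, with a UMI in 5.08%, 8.68% and 10.4% of thinned members (8.68%, 14.6% and 16.6% unthinned), against at most 0.41% of thinned lymphocyte-gated barcodes. Wnt2 had one in 17.5%, 22.7% and 25.9%.

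Bmp2, which with Bmp6 drives hepcidin, was at 694, 478 and 725, while Bmp6 was at 16.6, 52.0 and 53.9 and so had its low value in NEJ638 alone. Hgf, the hepatocyte growth factor, stood at 89.2, 76.8 and 107. Gas6, a ligand for the receptors that clear dying cells, stood at 161, 201 and 258. The Notch ligand Dll4 was at 80.9, 106 and 90.6. Jag2, Il6 and Bmp4 were under 10 in each library.

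**Figure D1:**
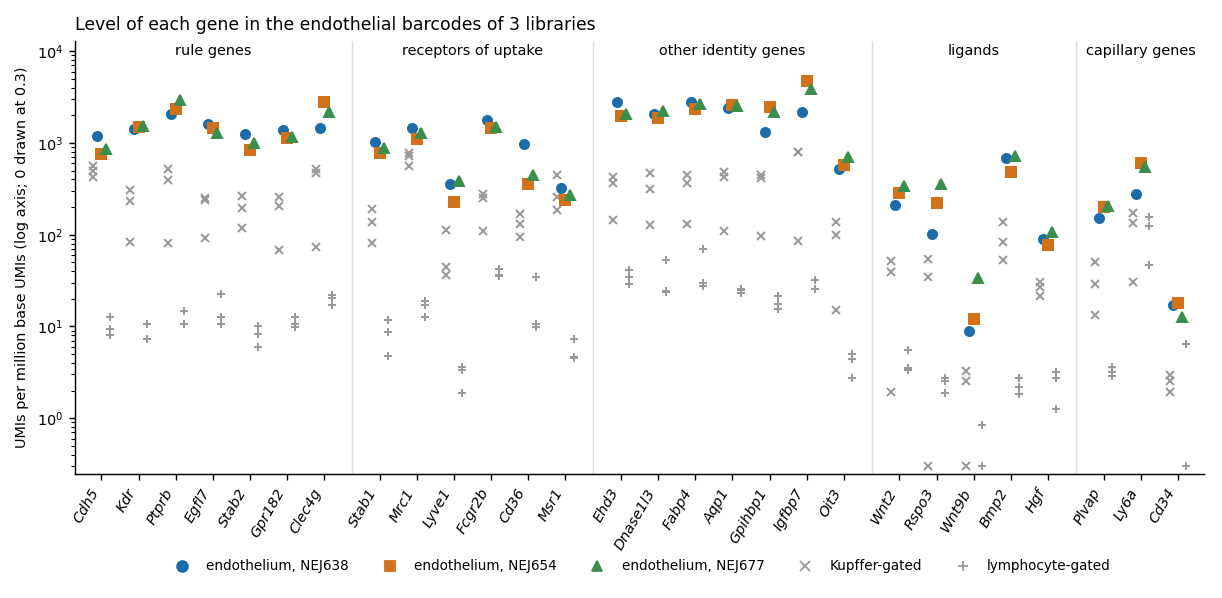
Level of each gene in CPM of base UMIs (log axis) in the endothelial members of NEJ638 (circles), NEJ654 (squares) and NEJ677 (triangles), with Kupffer-gated barcodes (grey crosses) and lymphocyte-gated barcodes (grey plus signs) of the same 3 libraries. Members lie above lymphocyte-gated barcodes at each gene shown, least so for Cd34 and Ly6a, whereas Msr1, Mrc1 and Cdh5 come close to the Kupffer-gated values.

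Of 21 antigen presentation and immune genes 14 were at 20 or more and none was 4-fold higher than in both gates, a count near the 6.21% of all genes, and the median smallest fold of the 14 was 0.487. Cd74, the chain that guides MHC class II, was at 184, 442 and 420 in members, 2866, 5735 and 4664 in lymphocyte-gated barcodes and 315, 420 and 460 in low-UMI barcodes. Without the members that carried Kupffer genes it was at 130, 432 and 222. The part of free RNA or of other cells in these levels was not tested. The MHC class I genes were shared by all classes, and H2-K1 was at 627, 1217 and 1144. The 10 interferon response genes had a lower sum in NEJ638, at 1738 against 2963 and 2669, as in Kupffer-gated barcodes (3521, 5102 and 4646). Bst2, a membrane protein induced by interferon, gave most of it (1036, 1745 and 1496), while Ifit1, Gbp2 and Rsad2 were lowest in NEJ654.

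Marker genes of other liver cells were counted in some members. The 10 Kupffer markers summed to 2472, 4142 and 3336 in members, to 2918, 5640 and 3555 in low-UMI barcodes and to 25540, 30470 and 28640 in the Kupffer gate, and no Kupffer marker was at 0 in members. Their UMIs were concentrated: members with at least 3 such UMIs and 0.1% of base, a limit set after the data were seen, numbered 409, 750 and 486 (15.5%, 39.0% and 24.3%) and held 94.44% to 94.98% of the list's UMIs. Stab2 was lower in these members, at 829, 745 and 804, than in the rest, at 1378, 915 and 1102. The 9 stellate and fibroblast markers summed to 299, 789 and 478, of which 89.0% to 94.4% lay in 48, 101 and 55 members, and these had high UMI counts (medians of 5576, 7730 and 10650). The highest doublet scores included 76, 82 and 74 of the members with Kupffer markers and 7, 5 and 12 of those with stellate markers. The source of the marker RNA in these members was not tested.

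Hepatocyte RNA behaved in another way. Alb, the hepatocyte albumin gene, was at 1175, 1406 and 550 in members, at 1087, 989 and 604 in lymphocyte-gated barcodes and at 7577 to 19240 in low-UMI barcodes. After thinning it had a UMI in 47.8%, 58.5% and 33.4% of members and in 61.4%, 61.3% and 42.1% of lymphocyte-gated barcodes, a cell type that should lack it. The intervals of the 2 shares overlapped in NEJ654. T and NK cell markers summed to 77.4, 125 and 129 and B cell markers to 115, 199 and 185, each below the low-UMI sums. Their UMIs were concentrated in few members. By the limit used above for Kupffer markers, 27, 34 and 29 members held 85.02%, 88.84% and 87.97% of T and NK UMIs. For B cell markers, 45, 65 and 60 members held 82.95%, 90.31% and 85.06%. The highest doublet scores included 23, 17 and 25 of the former members and 34, 45 and 48 of the latter. The part of other cells in these sums was not tested. Ptprc, the leukocyte gene, was at 63.1, 53.6 and 65.8 against 481 to 804 in lymphocyte-gated barcodes.

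To see how members differed along the lobule, they were split by 12 genes known to mark its ends. A barcode was central-marked with at least 2 UMIs of Wnt2, Wnt9b, Rspo3, Kit, Thbd and Cdh13 together and none of the portal genes, and portal-marked with at least 2 UMIs of Dll4, Efnb2, Ltbp4, Efna1, Ntn4 and Adgrg6 and none of the central genes. Central-marked members numbered 240, 182 and 187 (9.10%, 9.46% and 9.36%), and portal-marked members 394, 448 and 370 (14.9%, 23.3% and 18.5%). Most members carried genes of both ends (67.5%, 53.7% and 64.2%), and 2.88% to 5.51% carried neither. Both marks require that no UMI of the other end was seen, so these shares depend on depth and are not compared between libraries. Central-marked members were shallower, with medians of 2168, 2975 and 3180 UMIs against 2499, 3472 and 3994 for portal-marked members.

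The split genes were measured too, each with the marks made from the other 11. Central-marked members exceeded portal-marked ones 4.31-fold, 7.17-fold and 10.6-fold for Wnt2, 3.46-fold, 5.97-fold and 6.45-fold for Kit, a receptor kinase, and 6.58-fold, 12.7-fold and 23.3-fold for Cdh13, an atypical cadherin. Rspo3 was almost confined to one end, at 325, 443 and 838 in central-marked and 2.88, 13.8 and 2.57 in portal-marked members. At the portal end Ntn4, a netrin of basement membranes, was 3.001-fold, 6.03-fold and 6.42-fold higher, Dll4 2.64-fold, 3.64-fold and 6.77-fold higher, and Efnb2, the arterial ephrin, 3.10-fold, 3.16-fold and 6.08-fold higher. Each of the 12 genes lay on the side it marks in each of the 3 libraries. For Efna1 in NEJ638 the interval of the central over portal ratio reached past 1 (0.422 to 1.01).

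Beyond the split genes, 69 of 5979 genes at 20 or more were at least 1.5-fold higher in central-marked members in each library (1.15%), and 45 were at least 1.5-fold higher in portal-marked members (0.753%). Since neither count comes from a test, they describe how many genes followed the split by that much in all 3 libraries.

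On the central side the LIM homeobox factor Lhx6 led. It was at 89.5, 64.8 and 116 in central-marked and at 2.91, 0.605 and 0 in portal-marked members, where it had 3, 1 and 0 UMIs. For NEJ677, at 0 in portal-marked members, the ratio with the 0 set to 3 UMIs was 60-fold and the lower limit of its exact interval was 47.6. In NEJ638 the ratio was 30.8-fold with an interval of 9.90 to 154. Ackr3, a scavenging chemokine receptor, was at 217, 37.5 and 72.0 against 45.6, 6.05 and 3.23. Lgals1, a galectin, was at 699, 1079 and 928 against 188, 256 and 201. Central-marked members were higher in every library for both genes. Dcn, the most abundant of the stellate and fibroblast markers, was also higher in central-marked members of NEJ654 (384 against 58.1) and NEJ677 (36.7 against 18.1) but not of NEJ638 (41.9 against 71.8), and the part of stellate RNA in the central values was not tested.

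Among further genes on the central side, Cyp26b1, which breaks down retinoic acid, was at 335, 254 and 524 in central-marked members and 113.5, 102 and 130 in portal-marked ones, and Rarb, a retinoic acid receptor, at 154, 112.5 and 104 against 49.5, 26.6 and 25.9. Dhrs3, which reduces retinal, was 1.90-fold, 1.93-fold and 2.21-fold higher. Ptgs1, the constitutive cyclooxygenase, was 2.31-fold, 2.48-fold and 2.95-fold higher, and Ltc4s, leukotriene C4 synthase, 4.28-fold, 3.19-fold and 3.60-fold. Ahr, the receptor for dioxins, was at 442, 203 and 291 against 201, 78.1 and 86.6. Cyp26b1, Dhrs3, Ptgs1 and Ahr were named for their known roles after their values were seen.

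Of the genes in the fixed lists, Fabp4, Plvap, Gas6 and Dll1 were on the central side. Fabp4 was 1.78-fold (4010 against 2254), 2.25-fold (3691 against 1641) and 2.71-fold (3889 against 1435) higher. Plvap was 2.36-fold, 2.47-fold and 2.40-fold higher, with intervals that all lay between 1.79 and 3.11. Gas6 was 2.85-fold, 2.80-fold and 3.36-fold higher, and the Notch ligand Dll1 2.22-fold, 1.72-fold and 1.75-fold higher. Others among the 12 with the largest smallest fold were Jup (plakoglobin), Rab3b, Cgnl1, Prelp, Tmem176a and Bcam, whose folds lay between 2.94 and 7.20.

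On the portal side the transcription factor Mecom led, at 82.4, 80.5 and 101 in portal-marked and 5.71, 8.52 and 4.59 in central-marked members, which made it 14.4-fold, 9.45-fold and 21.96-fold higher. Msr1, described above as shared with Kupffer cells, was at 588, 438 and 580 against 116, 52.9 and 78.1, or 5.06-fold (3.89 to 6.70), 8.28-fold (5.78 to 12.3) and 7.43-fold (5.60 to 10.1). In members without Kupffer markers the folds were 5.72, 11.2 and 10.3. C1q genes are held under 1% of base in each member by the rule. They made up similar small shares of central-marked (0.0982%, 0.205% and 0.142% of base) and portal-marked members (0.123%, 0.167% and 0.133%). In members with at least 4 UMIs of split genes, Marco was at 160, 31.3 and 22.6 with only central ones and 210.5, 155 and 175 with only portal ones. C1qa, C1qc, Clec4f, Cd5l, Adgre1 and Csf1r were also lower with only central ones in each library. C1qb was higher there, and Vsig4 and Timd4 varied. The part of Kupffer RNA in the portal values of Msr1 was not tested.

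Cd36 went with Msr1, 1.88-fold, 2.64-fold and 2.66-fold higher at the portal end, and so did Gpr182, at 1599, 1426 and 1551 against 1001, 788 and 836. Ly6a, a surface protein of capillaries and arteries, was 4.05-fold, 8.09-fold and 4.93-fold higher, and the ephrin Efnb1 2.36-fold, 3.86-fold and 3.57-fold. Adam23, a catalytically inactive surface protein of the disintegrin family, was at 1211, 798 and 861 against 592, 307 and 329. The Notch targets Hes1 and Nrarp, named for that role after their values were seen, were 1.61-fold, 2.02-fold and 2.02-fold and 1.63-fold, 2.06-fold and 2.14-fold higher. The interval for Nrarp in NEJ638 reached below 1 (0.974 to 2.84). The other leading portal genes were Gm35533, Morrbid, AW011738, Ccn4, Zbtb39 and Armcx4, whose smallest folds ranged from 1.94 to 6.65.

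Stab2, Stab1 and Lyve1 passed the limit in neither direction. Stab2 was at 1262, 875 and 1151 in central-marked and 1213, 696 and 848 in portal-marked members, Stab1 at 1045, 846 and 983 against 1006, 696 and 826, and Lyve1 at 291, 188 and 250 against 357, 190 and 373. Of the scavenger list only Cd36 and Msr1 passed among 13 measured genes. None of 11 growth factor receptors, 22 transcription factors, 7 clotting genes or 14 immune genes did, counts of 0 that lie near the 1.15% and 0.753% of all genes. Values under the limit can still differ: Ephb4, the venous ephrin receptor, was 1.503-fold, 1.38-fold and 1.69-fold higher at the central end, and Gpihbp1 was higher at the portal end in each library, at 1529, 2973 and 2782 against 1163, 1892 and 1589.

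**Figure D2:**
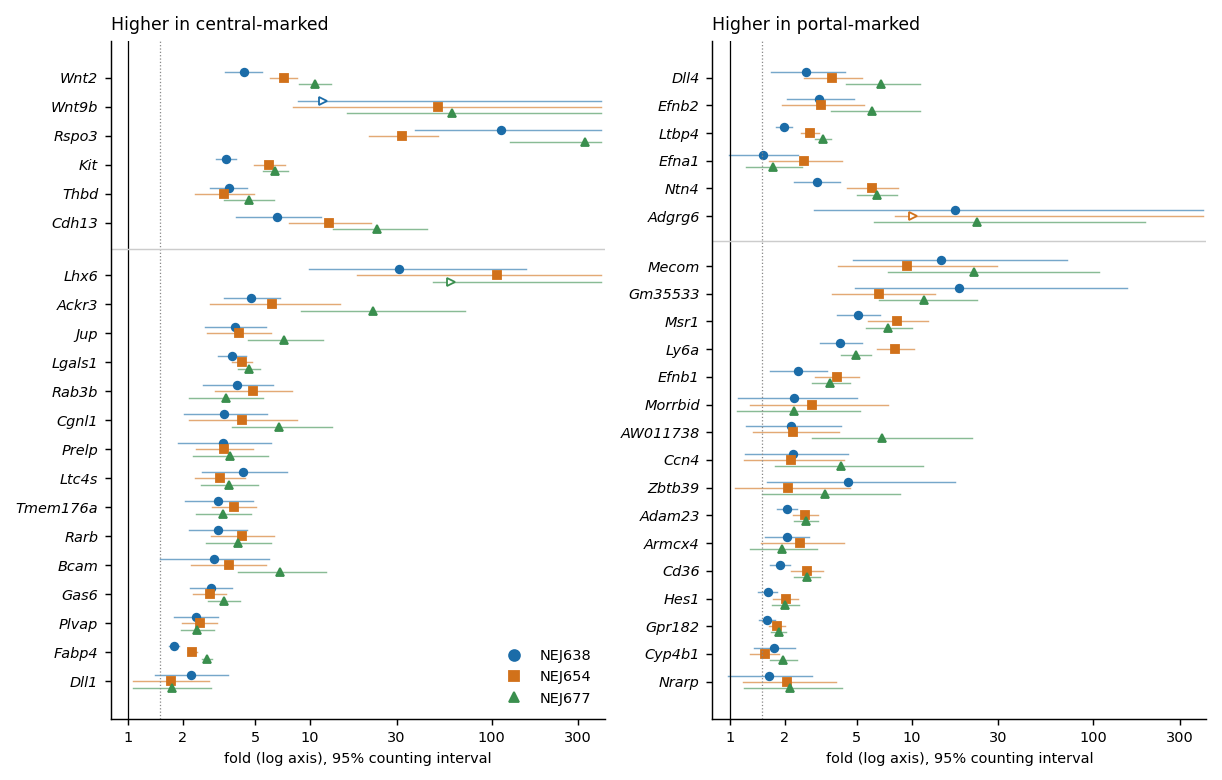
Fold (log axis) between central-marked and portal-marked members in NEJ638 (circles), NEJ654 (squares) and NEJ677 (triangles), with lines for the exact 95% counting interval, drawn up to 400. Above the grey line in each panel are the split genes, marked by the other split genes, and below it are some of the genes that passed 1.5-fold (dotted line) in the 3 libraries. Open triangles are ratios with 3 UMIs set for the other end where it had 0 UMIs, and all points lie above 1.

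Members with signals of both ends, which the marks had left out, were then included. Members with at least 4 zone UMIs, a limit set after the data were seen, were put in 4 steps: only portal, mostly portal, mostly central and only central UMIs, with 237, 635, 863 and 143 members in NEJ638, 289, 410, 492 and 119 in NEJ654 and 289, 469, 720 and 137 in NEJ677. The genes followed here were mostly chosen by their difference between the ends, so their values in the end steps are a description. Msr1 went from 668 through 436 and 181 to 115 in NEJ638, from 455 through 295 and 105 to 33.8 in NEJ654 and from 607 through 384 and 116 to 62.2 in NEJ677. Lhx6 went the other way, from 2.94 through 9.13 and 57.2 to 112 in NEJ638. It stayed low in both portal steps and was high in both central steps of each library.

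The summed level of Gas6 rose by step, at 73.6, 123, 198 and 263 from portal to central in NEJ638, and that of Cd36 fell from 1295 to 595 in the same library. Members of the middle steps were deeper in each library, with medians of 2644, 3161, 2868 and 2270 UMIs from portal to central in NEJ638. Whether single cells held intermediate levels was not tested. Fabp4 was nearly level over the portal steps and higher in the central ones, with 2220 and 2320 in the portal steps of NEJ638 and 3373 and 4607 in the central ones, and 1504 and 1495 against 3907 and 4388 in NEJ677. Stab2 moved little in NEJ638, from 1189 to 1217, and more in NEJ677, from 809 to 1150. The stellate and fibroblast marker Dcn was highest in the middle steps. From portal to central it was at 48.6, 181, 171 and 51.4 in NEJ638, 36.2, 493, 831 and 516 in NEJ654 and 9.74, 243, 438 and 39.6 in NEJ677. The part of stellate RNA in the levels of the steps was not tested.

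**Figure D3:**
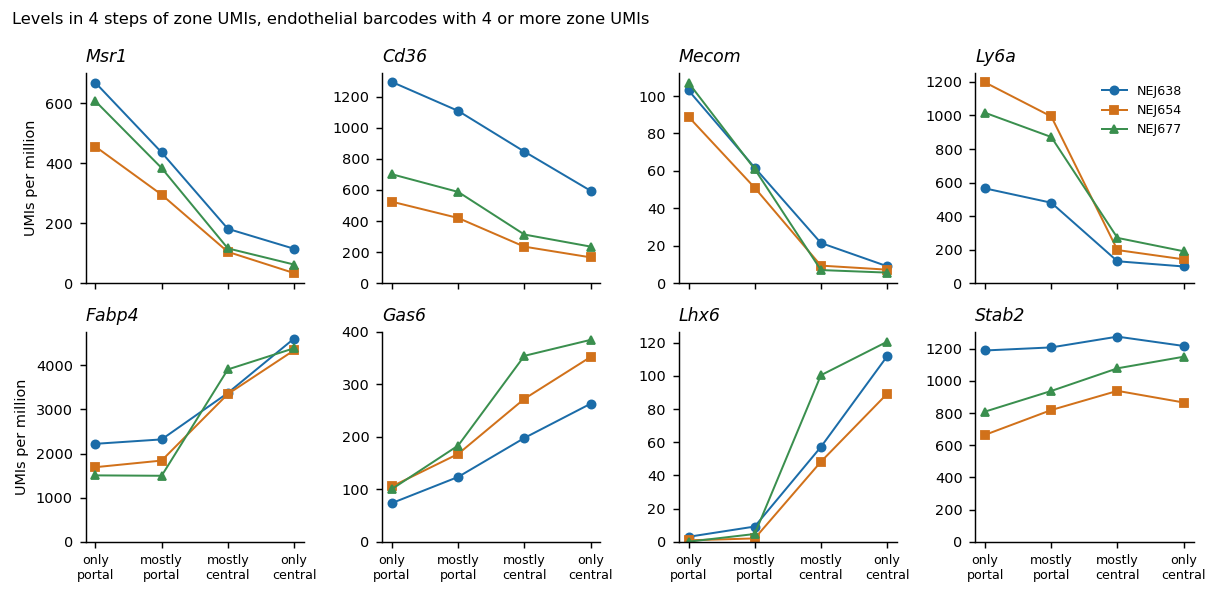
Levels of 8 genes in CPM of base UMIs (linear axes from 0) in 4 steps, from members with only portal zone UMIs to members with only central ones, with 1 line a library. Msr1, Cd36, Mecom and Ly6a descend from portal to central in each library, Fabp4, Gas6 and Lhx6 end higher at the central step, and Stab2 changes least in NEJ638.

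Some of the genes that followed the split were neighbours in the genome (positions from the GENCODE M21 annotation of GRCm38). On chromosome 2 Ndufa8 (36036326 to 36049406), Lhx6 (36081953 to 36105408), Rbm18 (36116079 to 36136773), Mrrf (36136389 to 36190647) and Ptgs1 (36230426 to 36252272) were all on the central side. Ndufa8, Rbm18 and Mrrf were named for their position after their values were seen, as was Tmem176b. The central folds of Ndufa8 were 2.78, 1.90 and 3.39, those of Rbm18 1.59, 2.45 and 2.18 and those of Mrrf 3.79, 1.82 and 2.04. Rbm18 and Mrrf overlap at their starts on opposite strands, as do Tmem176a and Tmem176b on chromosome 6, and on the portal side Zbtb39 and the rule gene Gpr182 overlap at their ends on chromosome 10. Reads in the overlap of such pairs can be split in ways that the files do not show, so the values within each pair are uncertain. The interval for Mrrf in NEJ654 reached below 1 as well.

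A small set of members carried Vwf. Members with at least 2 Vwf UMIs, a limit set after the data were seen, numbered 114, 77 and 86 (4.32%, 4.004% and 4.30%) and held 67.3%, 87.0% and 89.3% of the Vwf UMIs. Sinusoidal genes were low in them: Stab2 was at 801, 226 and 292 against 1277, 876 and 1044 in the rest, Lyve1 at 120, 37.7 and 55.1 against 373, 240 and 410, and Mrc1 at 1207, 306 and 539 against 1479, 1153 and 1318. Pecam1 was somewhat higher in each library, at 567, 633 and 796 against 469, 517 and 600. Ly6a was at 2095, 3885 and 2435 against 183, 422 and 425 and Selp, the venous selectin, at 71.2, 42.7 and 126 against 11.1, 7.76 and 13.9, both higher in each library. Ackr1, another venous gene, was higher in NEJ638 and lower in NEJ654 and NEJ677, at 17.8, 20.1 and 21.3 against 10.03, 29.5 and 28.9. The differences in Stab2 and Mrc1 were smaller in NEJ638 than in the other two.

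These members were divided by 3 of the zone genes. Those with Adgrg6 or Ntn4 and no Rspo3 made up 50%, 54.6% and 53.5% of them (57, 42 and 46 barcodes), and those with Rspo3 and neither of the others 18.4%, 24.7% and 26.7% (21, 19 and 23). The former held 3121, 6300 and 3791 CPM of Ly6a and 299, 486 and 375 of Gja4, the arterial connexin. The latter held 389, 358 and 587 of Ly6a and 297, 111 and 337 of Selp, against 22.01, 4.63 and 21.2 in the former. Both kinds were low in Lyve1, at 106, 23.2 and 81.6 and at 0, 37.0 and 10.9. Barcodes with both signals were 8.77%, 15.6% and 19.8%. The remaining 26 barcodes of NEJ638 (22.8%), 4 of NEJ654 and 0 of NEJ677 had none of the 3 genes, and in those of NEJ638 Stab2 was at 1342 and Lyve1 at 279. The sets are small, and genes used to form them are not results.

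**Figure D4:**
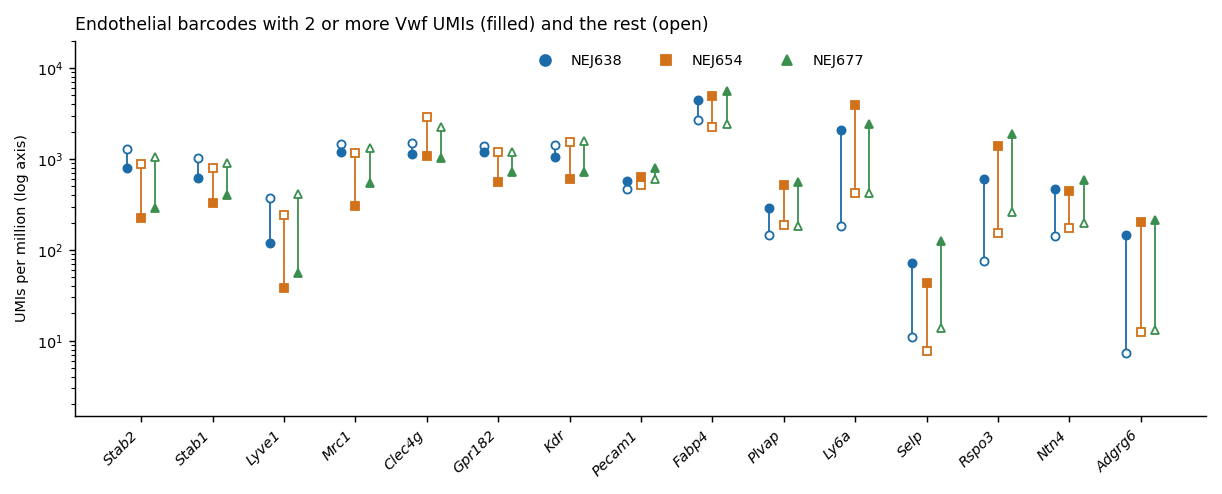
Levels in CPM of base UMIs (log axis) in members with 2 or more Vwf UMIs (filled) and in the other members (open), with a line joining the 2 values of each library. Stab2, Stab1, Lyve1, Mrc1, Clec4g, Gpr182 and Kdr are lower in the Vwf members of each library, and Fabp4, Plvap, Ly6a, Selp, Rspo3, Ntn4 and Adgrg6 are higher.

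Cell cycle genes differed between libraries, highest in NEJ638. The 10 genes summed to 849, 375 and 223 in members, with 630, 671 and 374 in low-UMI barcodes, 884, 332 and 218 in Kupffer-gated and 758, 449 and 511 in lymphocyte-gated barcodes. Only in NEJ638 was the sum in members above that of the low-UMI barcodes. Members with at least 3 UMIs of these genes, a limit set after the data were seen, were 566, 167 and 120 (21.5%, 8.68% and 6.003%) and had medians of 3888, 5529 and 8035 UMIs against 2432, 3497 and 4240 in the rest, and Stab2 was lower in them, at 973, 649 and 749. The sum of the immediate early and heat shock genes had the same order, at 5187, 3639 and 3014. The inducible chaperones Hspa1a (974, 585 and 293) and Hspa1b (1142, 508 and 236) followed it, while Jun (568, 626.5 and 594), Ier2, Atf3 and Dnajb1 were highest in NEJ654.

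Between libraries, 45 of 4395 genes at 50 or more in at least 1 library had a highest level 4-fold or more over the lowest (1.02%), and the median ratio of all genes tested was 1.45. Of the 45, 30 were highest in NEJ638, 6 in NEJ654 and 9 in NEJ677. For 35 of them the low-UMI barcodes were highest in the same library, and 10 were below the low-UMI level in their highest library. Low-UMI barcodes can hold RNA of the members too, and the part of free RNA in these differences was not tested.

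The widest ranges came from genes of the sex chromosomes. Xist, the X-inactivation RNA of female cells, was at 1885, 641 and 0.103, and Ddx3y, a Y-linked gene, at 0, 0 and 74.2, a pattern of male cells in NEJ677 and of female cells in the other two. Gt(ROSA)26Sor, the transcript of the Rosa26 locus, was at 379, 21.4 and 23.2, and was also highest in NEJ638 in lymphocyte-gated barcodes (312, 39.9 and 27.5). The study's methods name the CAG-MYC strain R26StopFLMYC. Which of these livers carried it was not given, and a link of this transcript to genotype was not tested. The hepatocyte genes Serpina1e (2.35, 15.4 and 59.6) and Mup3 (11.1, 87.1 and 103) were far below their low-UMI levels of 53.9, 179 and 931 and of 275, 1128 and 2098. Gm10800, Ccnb1ip1, Pclaf, a cofactor of replication, and Tfrc, the transferrin receptor, completed the 10 widest with Dbp, and all 5 were highest in NEJ638. Gm10800, at 53.6 in members of NEJ638, was at 3248 in its low-UMI barcodes, and Tfrc was at 109 and 108.

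The clock output gene Dbp was at 113 (106 to 121), 14.3 and 84.6, and was lower in lymphocyte-gated barcodes of the same libraries (15.5, 8.24 and 9.88), least so in NEJ654. Tef, of the same family, and Nr1d2, a nuclear receptor of the clock, had the same order, at 72.1, 10.8 and 35.5 and at 96.3, 18.03 and 44.9. All 3 genes were lowest in NEJ654, and Tef and Nr1d2, as well as Sox11 below, were named after their values were seen. Low-UMI barcodes had the same order for Dbp, at 72.1, 5.76 and 19.9. The central gene Ackr3 was at 128, 19.9 and 32.6 and Sox11, which was counted on the central side with an interval in NEJ654 that reached below 1 (0.80 to 3.18), at 108, 18.03 and 26.96, and neither exceeded 2 in lymphocyte-gated barcodes of any library. Both were highest in NEJ638, while the central over portal fold of Ackr3 was smallest there (4.76, 6.20 and 22.3).

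**Figure D5:**
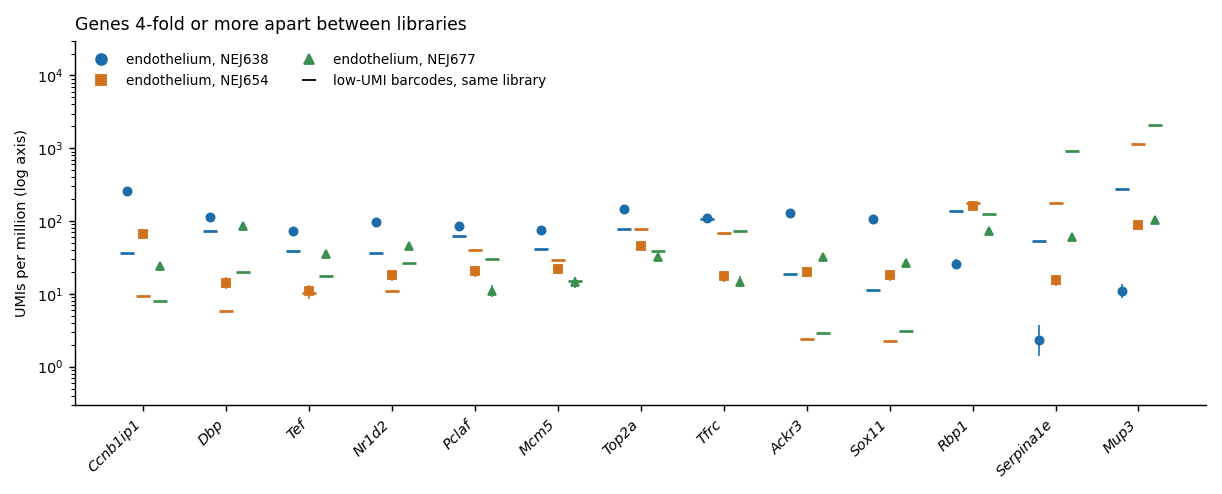
Levels in CPM of base UMIs (log axis) of 13 genes that were 4-fold or more apart between libraries, in members (symbols, with exact 95% counting intervals) and in low-UMI barcodes of the same library (dashes). Ackr3 and Sox11 lie above the dashes in each library, and Serpina1e and Mup3 lie below them in each library.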

How the data were processed

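UMI counts per gene and barcode were deposited by the authors for each library as unfiltered Cell Ranger matrices. The submitters' processing notes name Cell Ranger 6.0 and the study's methods state that intronic reads were counted, while the file headers name another version, so whether those settings apply to these files, and their build, could not be settled. The labels and the study also differ on whether nuclei or cells were loaded. Library totals were 40214395, 42191233 and 47253154 UMIs. Members and gene lists were chosen with earlier results of these data known.

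Counts were summed over the members of each library and divided by base UMIs (CPM). With no groups in the labels, no test was made, and exact Poisson or Clopper-Pearson 95% intervals (scipy 1.17.1) were computed. A count of 0 was taken to allow up to 3 UMIs. For the share of barcodes in which a gene was detected, every barcode was thinned to 1000 UMIs. Genes named were those of 28 lists (258 genes), the 15 largest folds over both gates, the 12 largest zone folds in each direction and the 10 widest ranges between libraries, and others are marked as named after their values were seen. Genes compared between zones needed a mean of 20 CPM over both ends in each library. Scrublet (scanpy 1.11.5) set its own threshold so high that it marked 1, 1 and 6 barcodes, so doublets were not removed, and the highest scores (0.8% per 1000 barcodes, 232, 147 and 194 members) were left out only as an alternative. Of 32285 genes 32158 had a position in GENCODE M21 (GRCm38). Calculations used Python 3.11.15, numpy 2.4.6 and pandas 2.3.3 and were tested on simulated data. The alternatives are given in the closing section. A few genes that these rules name are not reported here.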

Additional observations from a re-analysis of the deposited data

How the results depend on the processing

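The number of members ranged over 8 alternative limits from 2009 to 2738 in NEJ638, 1516 to 2346 in NEJ654 and 1698 to 2247 in NEJ677. Counts of genes moved with their own limits. At a fold of 2 in place of 1.5, 27 genes were higher in central-marked and 10 in portal-marked members, and at a level of 50 in place of 20 CPM these were 37 and 25. Between libraries a fold of 3 gave 114 genes and a level of 100 CPM 19. Without the recurring barcodes and the highest doublet scores, the counts were 65 central, 50 portal and 45 between libraries. Marking zones by the larger share of at least 4 zone UMIs, an alternative chosen after seeing the data, gave 40 and 21, with 32 of the 69 central and 14 of the 45 portal genes among them. Thinned to 1000 UMIs the zones gave 93 and 57 genes, which included 42 of the 69 central and 24 of the 45 portal genes, and 62 and 43 kept their direction in all 3 libraries. Without members that carried Kupffer markers, also chosen after seeing the data, 52 and 37 were still counted, and 69 and 44 kept their direction. The causes were not tested. Of 688 levels of 20 CPM or more, a C1q limit of 0.5% moved 51 by over 1.5 times, a mean over barcodes 59 and leaving out the highest doublet scores 23. The zones were compared within each library, and no paired test was made.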

Other observations

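The same gate took a smaller share of the kept barcodes in the 4 libraries that the study named as tumors: 2013 (4.95% of kept) in NEJ634, 120 (1.59%) in NEJ687, 18 (0.0838%) in NEJ709 and 56 (0.463%) in NEJ723. Members of NEJ634 held a median of only 6 UMIs of the rule genes, just above the limit of 4, and the label text of NEJ709 names NEJ634, so which sample its values belong to is uncertain. NEJ634 gave 40660 of the kept barcodes of the series. Its low-UMI barcodes held 210 to 952 UMIs each, and those of NEJ638, NEJ654 and NEJ677 at most 183, 217 and 179. The part of free RNA in the kept barcodes and members of NEJ634 was not tested. All values stand on their own, since the labels set no groups. The rule genes made up a median of 0.372%, 0.728%, 0.649% and 0.651% of base UMIs there, against 1.12% to 1.19% in NEJ638, NEJ654 and NEJ677. In NEJ634, NEJ687, NEJ709 and NEJ723 Wnt2 was at 22.1, 73.0, 53.2 and 52.8 CPM, and Ehd3, of endocytic recycling, at 434, 637, 494 and 296. Stab2 was at 550.5, 700, 1193 and 998, and Lyve1 at 458, 927, 790 and 1368. Vwf was at 35.9, 125.5, 182 and 372. The values of Wnt2 and Ehd3 were all below those of NEJ638, NEJ654 and NEJ677, while those of Stab2 overlapped them and those of Lyve1 were all higher than the highest of the 3, 390. No test was made.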
